A study of Mus musculus with 15 samples.

Results

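Among the genes counted in mouse hematopoietic stem cells (HSC), 154 predicted genes and clones were higher in aged animals given nicotinamide riboside (NR) than in untreated aged animals. They were chosen by name and by level from 16154 genes. A gene had to carry a Gm number, a clone name of 2 capitals and 6 digits, or a name ending in Rik, which 3669 genes did. Every NR library then had to lie above every aged library, and the NR mean had to be at least 1 above the aged mean on the log2(CPM + 1) scale. CPM is counts scaled to a library total of 1000000, so 1 on this scale is about a doubling for a gene well above 1 CPM. The members are 116 Gm names, 25 clone names and 13 Rik names, which is 4.2% of the predicted genes and clones.

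All animals were C57BL/6 mice labelled female. The young mice were 6 to 12 weeks old, the aged mice 20 to 24 months old, and the NR group was aged mice of that range that drank acidified water with 3 mg/ml NR for 2 months. Young and aged mice had no NR. Each group had 5 libraries, each from the sorted HSC of one mouse, primed from the poly(A) tail and read near the 3′ end. Libraries are named below by group and replicate number (aged 1, NR 1).

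Most genes with such names have no assigned function. Many are non-coding transcripts found in large cDNA collections or by manual annotation: intergenic and antisense RNAs, pseudogene copies of expressed genes, and single-exon transcripts drawn inside the introns of other genes. The class TEC holds loci seen as clusters of expressed sequence tags with polyadenylation features that still await laboratory work. Intronic RNA belongs mostly to unspliced precursors, which stay in the nucleus and are spliced and turned over there, so the reads such loci collect can come from a transcript of their own or from the precursor of the gene around them.

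The members are shown first by sequence at 2 loci that each held several of them and encode transcription factors of HSC: Meis1, a homeobox factor, and Fli1, an ETS factor. All coordinates are GRCm38 with GENCODE M21 gene models, and all these members are single-exon transcripts on the minus strand, the strand of Meis1 and Fli1. The libraries were primed on runs of A, so the longest run of A inside each transcript is given in capitals with 30 transcript bases on either side. The windows lie at chr11:18889213-18889278, chr11:19006074-19006139, chr11:18884954-18885023, chr9:32526363-32526431 and chr9:32479575-32479639, in the order of the lines.
2900018N21Rik: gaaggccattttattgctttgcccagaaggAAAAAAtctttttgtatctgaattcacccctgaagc
2610001A08Rik: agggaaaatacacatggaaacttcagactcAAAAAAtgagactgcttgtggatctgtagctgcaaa
Gm37818: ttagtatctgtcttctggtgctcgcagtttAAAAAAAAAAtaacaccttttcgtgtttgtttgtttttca
Gm37474: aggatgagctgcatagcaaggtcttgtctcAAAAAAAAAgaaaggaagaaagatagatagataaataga
Gm38292: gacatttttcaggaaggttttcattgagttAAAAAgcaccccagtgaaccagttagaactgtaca

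The runs in these 5 transcripts were 5 to 10 bases long. Longer runs stood in Gm38012, in the polarity gene Pard3b, and Gm42639, in the protocadherin gene Pcdh7. They measured 22 and 21 bases and ended 2951 and 85 bases before the annotated 3′ end. Both are shown the same way, at chr1:61677275-61677356 and chr5:57946777-57946857 on the plus strand.
Gm38012: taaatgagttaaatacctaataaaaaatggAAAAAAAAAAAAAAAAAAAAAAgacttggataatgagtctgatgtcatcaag
Gm42639: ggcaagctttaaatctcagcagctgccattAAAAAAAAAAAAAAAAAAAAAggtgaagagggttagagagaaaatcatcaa

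The last 50 bases of the annotated transcripts were also read, since the polyadenylation signal AATAAA or its variant ATTAAA usually stands there. The 3 ends in Meis1 and the 2 in Fli1, at chr11:18888261-18888310, chr11:19005607-19005656, chr11:18884623-18884672, chr9:32525145-32525194 and chr9:32477333-32477382, held neither, so no letters are in capitals.
2900018N21Rik end: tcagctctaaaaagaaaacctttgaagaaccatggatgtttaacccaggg
2610001A08Rik end: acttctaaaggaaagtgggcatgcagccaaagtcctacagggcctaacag
Gm37818 end: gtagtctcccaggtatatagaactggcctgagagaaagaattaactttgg
Gm37474 end: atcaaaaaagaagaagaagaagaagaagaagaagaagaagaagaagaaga
Gm38292 end: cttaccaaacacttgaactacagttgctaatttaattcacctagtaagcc

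Over all members with a transcript, the search found AATAAA or ATTAAA on the transcript's own strand in the last 50 bases of 29 of 130, which is 22.3%. The share was 32.3% in the other predicted genes and clones and 72.5% in genes outside the name pattern. A run of at least 10 A stood in 25.4% of the members and 17.1% of the other predicted genes. Within the class TEC the order was the other way, 26.9% of members and 30.7% of the others. A match of letters is a description of the annotated transcript and does not mark a used site.

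Before the results, 3 properties of the libraries bear on the values. Total counts ran from 2122221 to 3631395 in the young, from 764119 (aged 2) to 13318989 (aged 3) in the aged, and from 2486399 to 3595384 in the NR libraries, so 3 counts stood for 3.93 CPM in aged 2 and for 0.225 CPM in aged 3. Young 1 and young 5, labelled female, held 104 and 108 CPM of Y-linked transcripts, against 0.757 to 3.16 CPM in the other 13 libraries, so results that use the young group are given with and without them. Genes of mature blood cells were higher in aged libraries: the listed erythroid, B cell, neutrophil, monocyte and T cell genes took 0.964 to 1.38% of counts in aged, 0.259 to 0.39% in NR and 0.271 to 1.3% in young libraries, the highest young value being young 3. All 14 listed HSC markers were counted, and their sum lay between 2180 and 2940 CPM in every library.

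In sum, the 154 members took 1021, 968, 1089, 1241 and 1059 CPM in young libraries 1 to 5. They took 626, 308, 271, 446 and 310 CPM in aged libraries 1 to 5 and 937, 1378, 1609, 1628 and 1116 CPM in NR libraries 1 to 5. Aged 1 was the highest aged library and NR 1 the lowest NR library. These 2 libraries set the distance between the groups for most members: aged 1 held the highest aged value of 101 members and NR 1 the lowest NR value of 81.

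**Figure D1:**
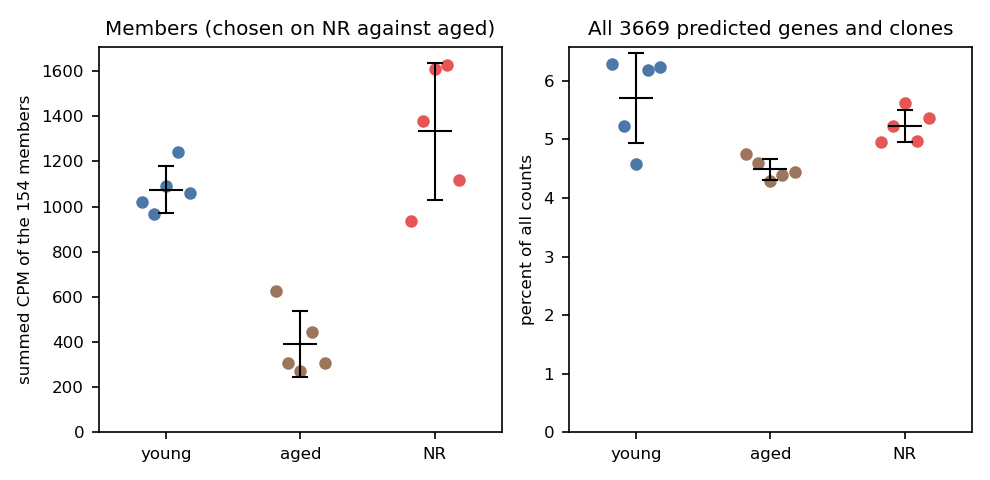
Left, summed CPM of the 154 members in each library. Right, percent of all counts on all 3669 predicted genes and clones. Points are libraries, horizontal marks group means and bars SDs (n = 5 each). In the left panel every aged library lay below all others, and in the right panel 1 young library (4.58%) lay within the aged range of 4.29 to 4.75%.

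The levels were low. The median member had a mean of 1.24 CPM in aged, 5.2 CPM in NR and 4.31 CPM in young libraries. In aged libraries 76 members had at least 1 library without a count, and 71 of the members were at 0 in the shallow library aged 2. Only 20 members had more than 3 counts in every aged library, against 147 in every NR library. The NR minus aged difference ran from 1.0007 to 2.48 with a median of 1.37 on the log2(CPM + 1) scale. It was at least 1.5 for 58 members and at least 2 for 10. Just inside the threshold stood Gm7882 with a difference of 1.0007, Gm44567 with 1.0045 and Gm45828 with 1.0133, and just outside it Gm37906 with 0.9986, AC159308.5 with 0.9954 and Gm45457 with 0.9915. Because the groups were compared to choose the members, these differences are a description. The same holds for the edgeR quasi-likelihood test, which called 129 members higher in NR than aged libraries and 0 lower, beside 3.88% and 4.18% of all genes (8.07% in either direction). With 1 library left out the first count ran from 52 to 134, with 52 without aged 3, 69 without NR 4, 72 without NR 3 and 74 without aged 5. In bulk RNA, fewer cells of a type and less RNA per cell cannot be told apart.

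The full rule, with its minimum difference, was met more often by such names than by others. Apart from the name, 222 genes met it, 1.37% of all genes, and 154 of these 222 (69.4%) were predicted genes or clones, which made up 22.7% of the genes counted. The other 68 were 0.545% of the 12485 genes outside the name pattern. Of the predicted genes and clones, 232 (6.32%) had every NR library above every aged library, beside 6.3% of all genes, so on separation alone their share was that of all genes.

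Members inside Meis1 held the largest difference of all. 2900018N21Rik, a TEC transcript, was at 16.8, 6.54, 3.53, 6.49 and 2.36 CPM in aged libraries 1 to 5, at 22.4, 42.7, 59.5, 54.9 and 23.1 CPM in NR libraries, and at 40.5, 25.2, 19.8, 46.2 and 28.6 CPM in young libraries. Every young library also stood above every aged library. 2610001A08Rik, in another part of Meis1, was at 24.9, 9.16, 6.98, 18.6 and 7.26 CPM in aged, at 28.7, 44.9, 71.2, 67.8 and 34.2 CPM in NR, and at 31.7, 13.6, 32.0, 42.8 and 27.0 CPM in young libraries. Here young 2 lay among the aged libraries. Gm37818, whose span overlaps an exon of Meis1 so that the split of reads between them is uncertain, was at 4.26, 0, 0.451, 2.0 and 1.81 CPM in aged, at 4.3, 10.8, 8.04, 7.57 and 9.18 CPM in NR, and at 12.0, 8.0, 8.48, 16.8 and 12.4 CPM in young libraries. Aged 1 and NR 1 were almost level.

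Meis1 itself varied far less. It had a mean of 556 CPM in aged, 600.4 CPM in NR and 564 CPM in young libraries, and its NR against aged log2 fold change was -0.03 (SE 0.10, edgeR adjusted p = 0.899). CPM divides by library totals and the edgeR fit by TMM-adjusted totals, so they can differ in sign, here and below. The 3 members together had 8.19, 3.03, 2.15, 4.5 and 1.93 counts per 100 Meis1 counts in aged libraries 1 to 5. The same ratio was 11.2, 15.9, 20.9, 20.9 and 11.1 in NR libraries, and 15.3, 7.33, 11.1, 20.7 and 11.8 in young libraries. Young 2, the lowest young library, fell within the aged range of the ratio.

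Fli1 gave the same kind of values. Gm37474, the third most abundant member in NR libraries, was at 19.9, 15.7, 5.11, 10.3 and 5.44 CPM in aged, at 23.2, 44.3, 81.2, 83.7 and 25.6 CPM in NR, and at 30.6, 25.2, 26.9, 39.1 and 30.6 CPM in young libraries. NR 3 and NR 4 stood well above the other NR libraries. Gm38292 was at 1.42, 0, 0.826, 0.499 and 1.27 CPM in aged, at 4.3, 4.74, 9.25, 9.84 and 6.95 CPM in NR, and at 7.29, 3.2, 7.07, 9.68 and 6.61 CPM in young libraries, so the young and NR ranges overlapped almost fully. Fli1 was at a mean of 677 CPM in aged, 686 CPM in NR and 668 CPM in young libraries, and its NR against aged log2 fold change was -0.12 (SE 0.12, edgeR adjusted p = 0.555). Per 100 Fli1 counts, the 2 members had 0.724 to 3.28 counts in aged, 3.87 to 13.5 in NR and 4.53 to 7.81 in young libraries.

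The Rap1a locus, which encodes a small GTPase, held 3 sense intronic members, Gm43329, Gm43331 and Gm43328, and the lincRNA Gm43848, also a member, began 120 bases downstream of the gene on the same strand. Gm43329 was at 1.99, 0, 0.526, 0.499 and 0.363 CPM in aged libraries and at 2.01, 2.85, 7.24, 8.71 and 2.5 CPM in NR libraries, so aged 1 and NR 1 were almost level. The 3 intronic members together had 6.01, 0, 1.9, 0.996 and 0.926 counts per 100 Rap1a counts in aged libraries, 8.33 to 21.3 in NR and 5.66 to 13.8 in young libraries. Rap1a had means of 65.9, 65.1 and 76.7 CPM in aged, NR and young libraries, with an NR against aged log2 fold change of -0.19 (SE 0.16, edgeR adjusted p = 0.486). Gm43848 had means of 3.07 CPM in aged, 9.84 CPM in NR and 9.39 CPM in young libraries.

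In Dock10, a guanine nucleotide exchange factor, the named gene differed in the direction of its members, past the threshold only between aged and young libraries. It had means of 18.4 CPM in aged, 40.3 CPM in NR and 55.6 CPM in young libraries. Its NR against aged log2 fold change was 0.86 (SE 0.28, edgeR adjusted p = 0.0636), and its aged against young log2 fold change was -1.34 (SE 0.28, edgeR adjusted p = 0.00271), or -1.60 (SE 0.30, adjusted p = 0.00275) without young 1 and young 5. Gm38062, 1 of its 2 members, was at 3.55, 0, 1.5, 1.33 and 0.181 CPM in aged and at 3.73, 7.59, 15.7, 10.6 and 3.62 CPM in NR libraries. Per 100 Dock10 counts its 2 members had 33.8, 0, 14.7, 19.1 and 3.77 counts in aged libraries 1 to 5, and 31.6, 30.7, 42.5, 49.5 and 32.7 in NR libraries. Here the groups overlapped, with aged 1 above NR 1, NR 2 and NR 5. The 2 members in Pcdh7 had 4.76 to 24.9 counts per 100 Pcdh7 counts in aged and 22 to 82.2 in NR libraries, and aged 1 lay above NR 1. The 2 in Pard3b had 0.471 to 8.06 counts in aged and 9.3 to 21.2 in NR libraries per 100 Pard3b counts, with no overlap.

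**Figure D2:**
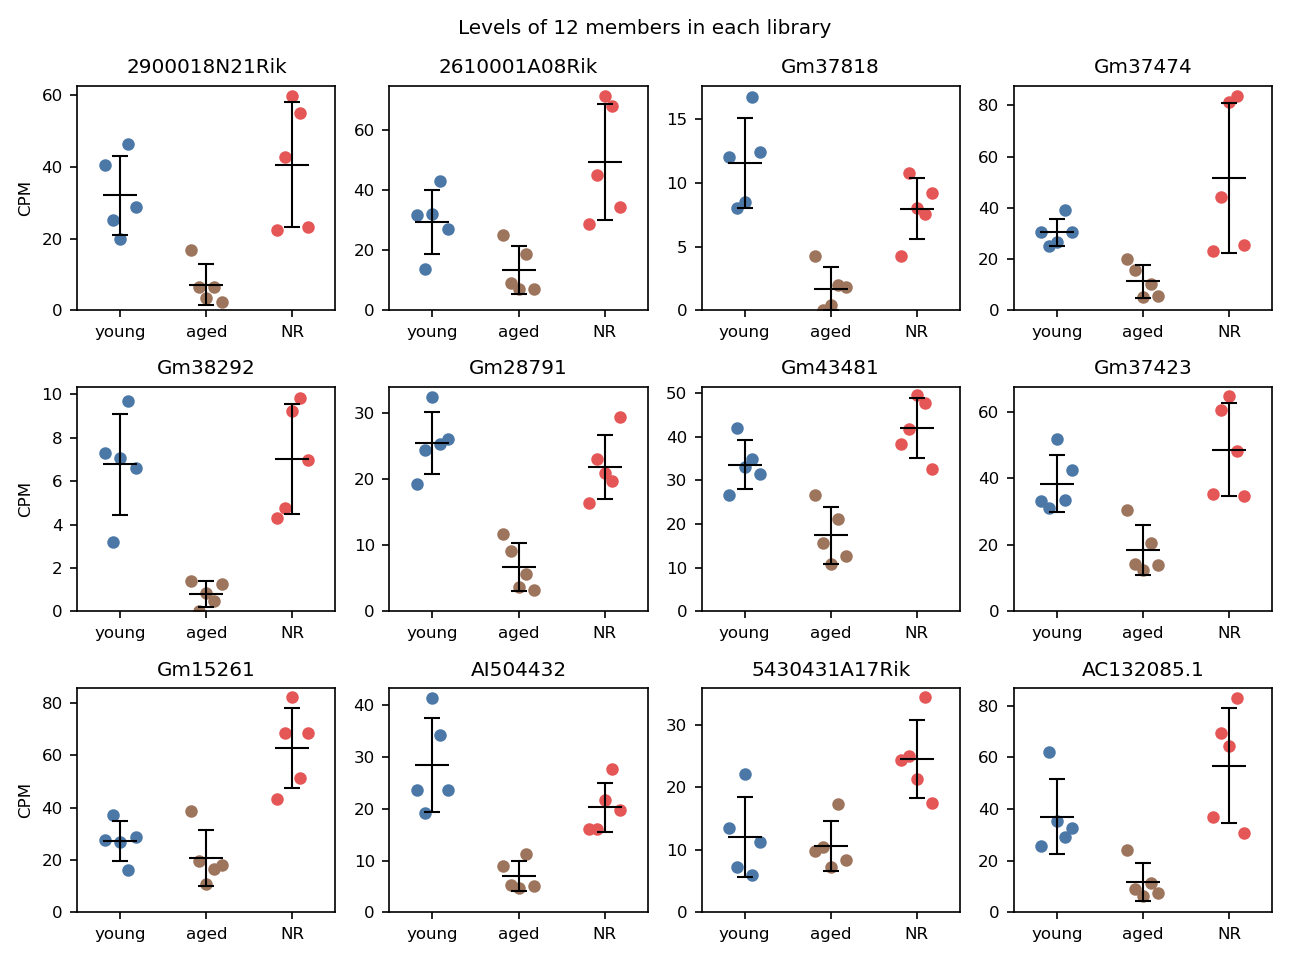
CPM of 12 members in each library, with group means and SDs (n = 5 each). The upper row and the first panel of the middle row are the members in Meis1 and Fli1. For Gm15261 and 5430431A17Rik the young mean was within 1 aged SD of the aged mean, and for the other 10 it was higher than that.

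The members differed in their place in the genome from the other predicted genes. The shares that follow are descriptions of the annotation. Of the 154, 130 (84.4%) had a name in the annotation, and the 24 without a match were all clone names. Inside the span of a named gene and on its strand lay 72 members (55.4%), against 645 of the 3067 other matched predicted genes and clones (21%). Another 23 members (17.7%, against 12.3%) lay inside a named gene on the opposite strand, and 35 (26.9%, against 66.6%) lay outside. Place goes with annotation class. Within TEC 79.1% of members and 65.5% of the others lay inside a named gene on its strand. Within sense intronic the shares were 100% and 88.7%. On the opposite strand lay 66.7% of antisense members and 36.0% of the other antisense genes. Among the 72, 69 shared no exon base with the named gene and so lay in its introns. The other 3 overlap exons, and their reads could be split either way. How strand was treated in the counting was not given in the sources used here, so for the 23 on the opposite strand reads of the named gene cannot be told apart from their own.

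Members outside named genes were often just past one. Of the 35, 13 (37.1%) began within 10 kb downstream of a named gene on the same strand, against 10.5% of the other predicted genes outside. They include Gm44250, 366 bases past Pon3, a lactonase gene. Read the other way, members made up 10.0% of all predicted genes inside a named gene on its strand, 5.74% of those on the opposite strand and 1.68% of those outside.

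By class, 67 members were TEC, 21 antisense, 11 lincRNA, 10 sense intronic, 9 processed pseudogene, 4 processed transcript, 4 small RNA, 3 protein coding and 1 of another kind. TEC made up 51.5% of the members and 20.5% of the other predicted genes, while processed pseudogenes made up 6.92% and 31.2%. A single exon was annotated for 74.6% of the members and 60.7% of the others. Their median exonic length was 2160 bases against 1360, and their median GC content 42.4% against 46.6%. Within TEC the values were closer, 2460 against 2280 bases and 40.6% against 41.4%. Chromosome 1 held 26 of the matched members, 7.2% of its predicted genes, and chromosomes 12 and 15 held 0 of 50 and 0 of 67.

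**Figure D3:**
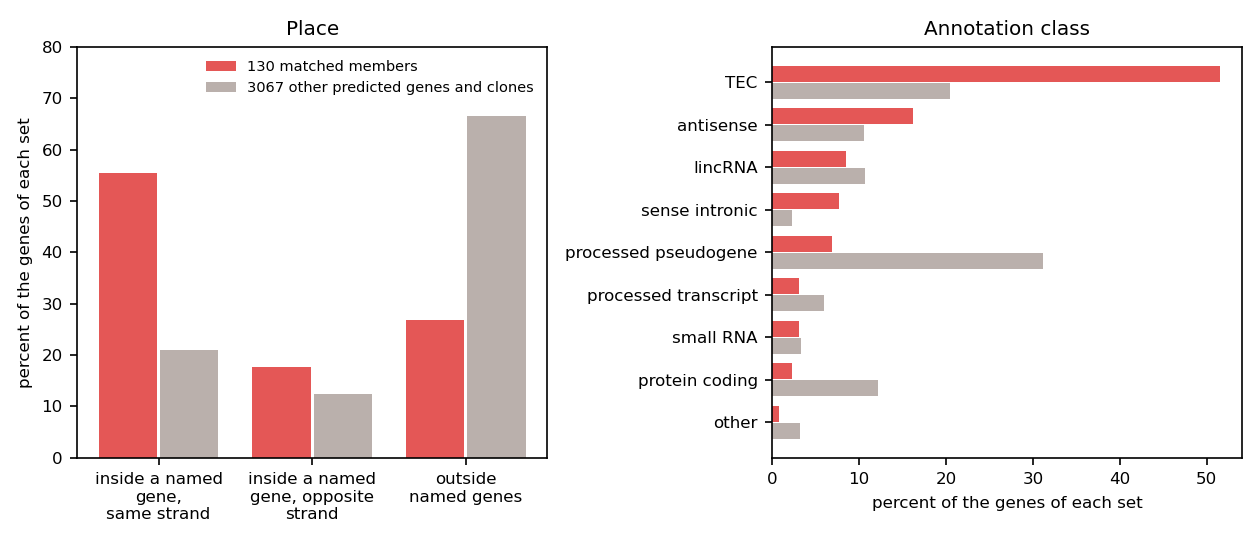
Place (left) and annotation class (right) of the 130 matched members and the 3067 other matched predicted genes and clones, each bar a percent of its own set. Members were more often inside a named gene on the same strand (55.4 against 21%) and more often TEC (51.5 against 20.5%). Within TEC the shares inside a named gene on the same strand were 79.1 and 65.5%.

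The 95 members inside named genes lay in 85 of them. In NR against aged libraries the median log2 fold change of these 85 genes was 0.12, with quartiles of -0.04 and 0.29. It was 0.05 for the 756 named genes that hold other predicted genes only, -0.04 for all genes outside the name pattern and 0.02 for all genes. By edgeR, 5 of the 85 (5.88%) were higher in NR libraries and 1 (1.18%) lower, beside 3.88% and 4.18% of all genes. Over genes outside the name pattern the shares were 2.68% higher and 5.15% lower. DESeq2 called 10 of the 85 higher and 1 lower, beside 5.68% and 5.45% of all genes. Without young 1 and young 5 edgeR called 3 and 1, beside 3.17% and 3.54%. The median member had a fitted log2 fold change of 1.75 in the same comparison, a value fixed in direction by the rule.

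The 5 that rose were Rabgap1l, a Rab GTPase-activating protein, by 0.48 (SE 0.15, edgeR adjusted p = 0.0475), Atp2a2, the calcium pump of the endoplasmic reticulum, by 0.62 (SE 0.13, adjusted p = 0.00884), Casd1, a sialic acid acetyltransferase, by 0.55 (SE 0.14, adjusted p = 0.0213), Kansl1l by 0.93 (SE 0.25, adjusted p = 0.0307) and Tet3, a dioxygenase of methylated cytosine, by 0.38 (SE 0.11, adjusted p = 0.0425), all as log2 fold changes. Nt5c3, a pyrimidine nucleotidase, fell by 0.38 on the log2 scale (SE 0.10, edgeR adjusted p = 0.0267). Its member Gm3793 was at 3.69, 0, 1.13, 6.33 and 1.27 CPM in aged and at 7.75, 13.9, 14.1, 12.1 and 9.73 CPM in NR libraries.

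In aged against young libraries, 21 of the 85 named genes (24.7%) were lower in aged and 5 (5.88%) higher by edgeR, beside 9.63% and 9.68% of all genes. Over genes outside the name pattern the shares were 9.15% lower and 11.5% higher. The median log2 fold change of the 85 was -0.22, and it was -0.09 for the named genes that hold other predicted genes only. Without young 1 and young 5, 14 were lower and 3 higher, beside 5.71% and 5.82% of all genes.

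**Figure D4:**
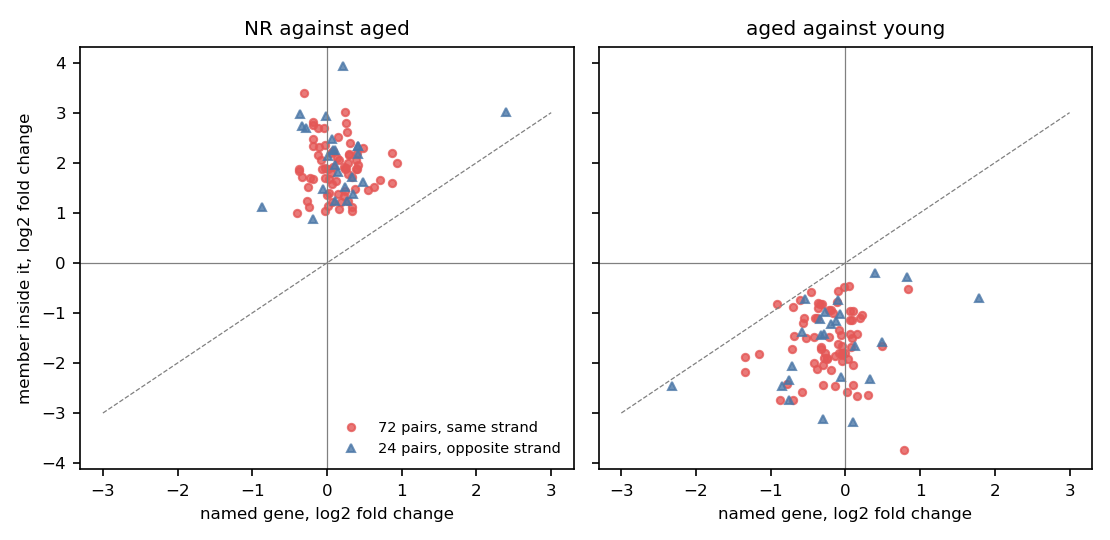
Fitted log2 fold change of members (vertical) against that of the named gene around each (horizontal), for NR against aged (left) and aged against young (right). Each of the 96 points is a member and a named gene (72 on the same strand, 24 on opposite strands, with 1 member inside a pair of overlapping genes), and the dashed line marks equal change. The named genes centre near 0 (median 0.12, left) while the members lie above, where the rule placed them.

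Several of these genes act in blood cells or on chromatin. Gm28112 lay in Ikzf2, a zinc finger factor of lymphoid and stem cells, with means of 0.797 CPM in aged, 4.56 CPM in NR and 7.25 CPM in young libraries. 5430434F05Rik, in Tet3, had means of 3.74, 11.9 and 9.59 CPM, and Gm37399, in the ETS factor Elf2, means of 1.27, 6.99 and 3.86 CPM in the same order. Gm44044 lay in Rybp, a Polycomb subunit, with means of 0.969, 3.79 and 5.51 CPM. The young mean was thus above the NR mean for the members in Ikzf2 and Rybp and below it for those in Tet3 and Elf2.

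Whether predicted genes inside introns moved apart from the members was tested on genes that the rule had left out. All predicted genes and clones in introns of a named gene on its strand, 687 in 488 genes, were summed and divided by the counts of those genes. With the 69 members among them left out, 618 remained, in 454 genes. Their counts per 100 counts of the named genes were 9.88, 8.35, 8.04, 7.74 and 7.65 in aged libraries 1 to 5, 9.01, 12.1, 12.9, 12.8 and 10.9 in NR libraries, and 10.2, 11.3, 8.45, 11.5 and 9.44 in young libraries. Aged 1 lay above NR 1, and the other NR libraries lay above every aged library. The NR mean exceeded the aged mean by 3.21 (exact 2-sided permutation test over the 252 arrangements of 5 against 5, p = 0.0159, adjusted over the 3 group comparisons 0.0476). Leaving the members out takes away genes with large NR minus aged differences, which leans this difference low. The ratio was chosen after seeing the data of the same libraries, which can lean it high. The net direction is not known.

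The aged mean was lower than the young mean by 1.85 (difference -1.85, exact permutation p = 0.0397, adjusted 0.0595), which missed the threshold after adjustment, and without young 1 and young 5 the difference was -2.09 (exact permutation p = 0.0357, not adjusted). NR and young differed by 1.36 with p = 0.175 by the exact permutation test. With the members kept in, the ratios averaged 8.06 ± 0.98 in aged, 12.0 ± 1.8 in NR and 10.4 ± 1.24 in young libraries (SD, n = 5 each). The 69 members kept in were chosen for low aged and high NR values, so these differences lean in the direction of the rule. Kept in, NR minus aged was 3.94 and aged minus young was -2.37, both given as a description. Without young 1 and young 5 the latter was -2.63.

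**Figure D5:**
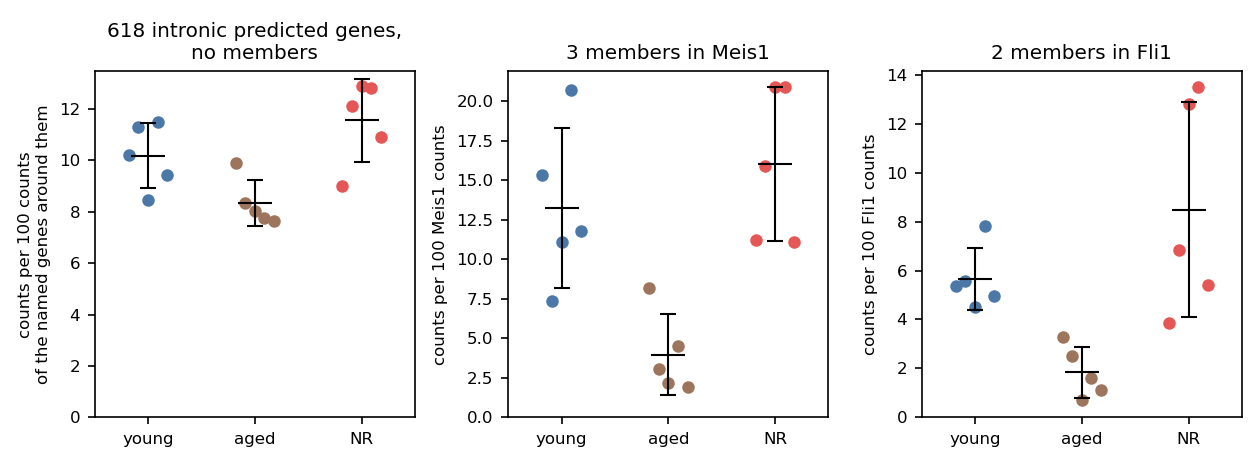
Counts on intronic predicted genes per 100 counts of the named genes around them, for the 618 that are not members (left), the 3 members in Meis1 (middle) and the 2 in Fli1 (right). Points are libraries, marks means and bars SDs (n = 5 each). In the left panel 4 of 5 NR libraries lay above all aged libraries, and NR 1 (9.01) lay below aged 1 (9.88).

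The share of all counts on predicted genes and clones, which were chosen by name only, was 4.75, 4.59, 4.29, 4.39 and 4.44% in aged libraries 1 to 5 and 4.96, 5.23, 5.62, 4.98 and 5.37% in NR libraries. Young libraries had 6.29, 5.23, 4.58, 6.18 and 6.23%. Every NR library lay above every aged library, and the difference of 0.738 percentage points had p = 0.00794 by the exact permutation test, the smallest the design allows (adjusted 0.0238). The sum includes the 154 members, and the shares divide by library totals. TMM factors, which adjust those totals, ran from 0.888 to 1.01 in aged and from 1.02 to 1.06 in NR libraries. The share on TMM-adjusted totals was not tested. When a minimum of 10 counts per library was set for these genes, NR minus aged was 0.315 points (exact permutation p = 0.0317). Aged minus young was -1.21 points (exact permutation p = 0.0238, adjusted 0.0357). Without young 1 and young 5 it was -0.838 (exact permutation p = 0.0536, at 5 against 3), and without the 10 most abundant predicted genes and clones, with all libraries, -0.339 (exact permutation p = 0.0397).

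The parts of this share did not all move. Predicted genes inside a named gene on its strand had 0.339% of counts in aged, 0.549% in NR and 0.492% in young libraries, and TEC loci 0.209, 0.434 and 0.396%. Both shares thus had their lowest group mean in aged libraries, which is given as a description. Both sums include members, which were picked for low aged and high NR values. They made up 72 of the 717 genes inside named genes on the same strand and 67 of the 696 TEC loci. The split by place and class was also chosen after seeing the data, so these differences can lean in the direction of the rule. The shares without members were not tested. Without young 1 and young 5, aged minus young was -0.157 points inside named genes and -0.186 for TEC. Predicted genes outside named genes had 3.26% in aged and 3.64% in NR libraries, a difference of 0.376 points. That sum includes 35 members, so its difference is also a description. All these shares divide by library totals and were not tested on TMM-adjusted totals. Processed pseudogenes had 1.17% in aged and 1.26% in NR libraries, and their difference of 0.0831 points did not pass (exact permutation p = 0.254, adjusted 0.381). The difference between pseudogenes and the other parts was not itself tested.

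The young libraries took no part in the choice of members, but any comparison with them reuses the aged or the NR libraries that did. Members were picked for low aged and high NR values, so both comparisons lean in the direction of the rule and are given as values. By edgeR, 86 members were lower in aged than in young libraries, beside 9.63% of all genes, and 1 was higher, beside 9.68% (19.3% in either direction). Without young 1 and young 5 these counts were 67 and 0, beside 5.71% and 5.82% of all genes. In NR against young libraries 2 members were higher and 0 lower, beside 2.56% and 1.91% of all genes, and without young 1 and young 5 the counts were 1 and 0. The median fitted log2 fold change of the members was -1.44 for aged against young and 0.34 for NR against young, where all genes had medians of -0.03 and -0.00.

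Put on a line from the aged mean (0) to the NR mean (1) of log2(CPM + 1), the young mean of the median member stood at 0.782, with quartiles of 0.56 and 0.962. It stood at 0.775 without young 1 and young 5, and library by library at 0.762, 0.624, 0.78, 0.977 and 0.83 in young 1 to 5. Because the members were chosen for aged and NR values that lie apart, and no position in the absence of a change was computed, these positions are a description only. The young mean was above the aged mean for 153 members and above the NR mean for 35. All young libraries lay above all aged libraries for 61 members, beside 8.51% of all genes, and below all NR libraries for 9, beside 2.92%. By class the median position was 0.819 for TEC, 0.917 for sense intronic, 0.563 for antisense members and 0.541 for processed pseudogenes.

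A few members had young values away from those of most members. Gm20429, a spliced transcript on chromosome 17, was at 0 in young 2 to 5 and at 1 read (0.365 CPM) in young 1, at 0 to 1.17 CPM in aged libraries and at 1.39 to 7.19 CPM in NR libraries. It was the member called higher in aged than in young, and 1 of the 2 called higher in NR than in young libraries. The other was Gm15261, an antisense transcript of 4 exons across from the GTPase-activating gene Arhgap6 and the member with the highest NR mean. Its values were 27.7, 37.2, 26.9, 16 and 28.9 CPM in young, 38.6, 19.6, 10.8, 16.5 and 18.1 CPM in aged, and 43.3, 68.3, 82.0, 51.5 and 68.4 CPM in NR libraries. Aged 1 was the only aged library above the young range. Arhgap6 had means of 84.6 CPM in young, 138 CPM in aged and 146 CPM in NR libraries, with an NR against aged log2 fold change of -0.06 (SE 0.11, edgeR adjusted p = 0.786).

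Spliced intergenic members varied too. AI504432, a lincRNA of 2 exons, was at 8.95, 5.23, 4.81, 11.3 and 5.08 CPM in aged, at 16.1, 16.1, 21.7, 27.6 and 19.7 CPM in NR, and at 23.7, 19.2, 41.5, 34.3 and 23.7 CPM in young libraries. All young and NR libraries stood above all aged ones. 5430431A17Rik, a lincRNA of 3 exons 1876 bases past Josd2, a deubiquitinase gene, was at 9.8, 10.5, 7.21, 17.3 and 8.35 CPM in aged, at 24.4, 25, 21.3, 34.4 and 17.5 CPM in NR, and at 13.5, 7.2, 22.1, 5.96 and 11.3 CPM in young libraries. There the young libraries spread across the aged range, at a position of 0.075.

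Other abundant members lay in single genes. Gm43481, in the transcription factor gene Gtf2i, had means of 17.4 ± 6.43 CPM in aged, 42.0 ± 6.9 CPM in NR and 33.6 ± 5.63 CPM in young libraries. Gm37423, in Dennd1b, an exchange factor for Rab35, had means of 18.3 ± 7.49, 48.7 ± 13.9 and 38.4 ± 8.65 CPM in the same order (SD, n = 5 each). For both, every young library lay above the highest aged value, except that young 1 was level with aged 1 for Gm43481. Gm43813, a processed transcript in Mlxip, had means of 5.61 ± 2.38, 19.0 ± 5.56 and 20.2 ± 4.19 CPM. The antisense transcript E130307A14Rik, of 13 exons, had 7.08 ± 2.15, 15.4 ± 3.61 and 14.7 ± 3.93 CPM, and the processed pseudogene Gm6542, in Ankhd1, had 6.54 ± 0.941, 14.5 ± 3.79 and 10.4 ± 2.67 CPM, all in the order aged, NR and young.

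Of the 25 clone names 24 could not be placed, AI504432 being the exception. The most abundant, AC132085.1, was at 24.3, 9.16, 6.38, 11.3 and 7.44 CPM in aged, at 36.7, 69.3, 64.4, 82.9 and 30.9 CPM in NR, and at 25.5, 62.0, 35.3, 29.0 and 32.8 CPM in young libraries. AC126943.1 had means of 12.2 CPM in aged, 33.6 CPM in NR and 35.3 CPM in young libraries. AC123705.2 had means of 2.77, 15.1 and 11.1 CPM in the same order, and AC156798.2 had 0.587, 6.6 and 4.03 CPM. All 4 had young means above the aged mean. Over the 24 unplaced members the median difference of NR minus aged was 1.27. Of these, 12 were lower in aged than in young libraries by edgeR, beside 9.63% of all genes. Both values lean in the direction of the rule, which picked low aged values.

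Known nuclear RNAs were set beside the members as a group of named non-coding genes. Of 13 counted, 4 rose in NR against aged libraries by edgeR and 0 fell (1 at an unadjusted p under 0.05, 0 by DESeq2), beside 3.88% and 4.18% of all genes. The median log2 fold change of the 13 was 0.38 where all genes had 0.02. The 4 were Kcnq1ot1, the antisense RNA of the Kcnq1 imprinted domain, with a log2 fold change of 1.28 (SE 0.24, edgeR adjusted p = 0.00564), Meg3, an imprinted RNA, with 1.01 (SE 0.25, adjusted p = 0.0191), Xist, the RNA that coats the inactive X chromosome, with 0.90 (SE 0.19, adjusted p = 0.00911), and Firre, an X-linked RNA that repeats hold in the nucleus, with 0.76 (SE 0.21, adjusted p = 0.0311). Malat1 had 0.44 (SE 0.16, adjusted p = 0.0942) and Neat1 0.38 (SE 0.19, adjusted p = 0.209). Snhg11 had 0.51 and Mir17hg 0.09, neither called. The rest of the list had negative log2 fold changes, none called. Tug1 had -0.40 (SE 0.14, edgeR adjusted p = 0.0885), Airn -0.42, Ftx -0.25, Pvt1 -0.12 and Jpx -0.07. Kcnq1ot1 and Xist were lower in aged than in young libraries, by 1.24 and 0.68 on the log2 scale (edgeR adjusted p = 0.0013 and 0.0165). Without young 1 and young 5 these log2 fold changes were -1.17 and -0.94 (edgeR adjusted p = 0.0115 and 0.00255). Neat1 went the other way, higher in aged than in young libraries by 0.99 (SE 0.19, edgeR adjusted p = 0.00129). The list thus had 1 higher and 2 lower in aged libraries, beside 9.68% and 9.63% of all genes. Without young 1 and young 5 it had 2 higher and 2 lower, beside 5.82% and 5.71%.

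Genes of RNA processing showed few calls in NR against aged libraries, where edgeR called 3.88% of all genes higher and 4.18% lower. Of 25 nuclear exosome and cofactor genes, 1 rose (Zfc3h1, which links polyadenylated nuclear RNA to the exosome) and 1 fell (C1d, an exosome cofactor), with a median log2 fold change of -0.01. Of 22 cleavage and polyadenylation genes 0 were called by edgeR, 1 had an unadjusted p under 0.05 and DESeq2 called 0. Of 48 spliceosome genes 1 fell (Snrpb2, a U2 snRNP protein). Of 22 nonsense-mediated decay genes edgeR called 0, 4 had an unadjusted p under 0.05 and DESeq2 called 1. Between aged and young libraries, 4 of the 25 exosome genes, 3 of the 22 cleavage genes, 4 of the 48 spliceosome genes and 2 of the 22 decay genes were lower in aged libraries, beside 9.63% of all genes. C1d, of the exosome list, and 3 spliceosome genes were higher, beside 9.68%. The counts lower were 2, 2, 1 and 1 without young 1 and young 5, beside 5.71% of all genes. Of 14 HSC markers, 1 was higher in NR than aged libraries (Tie1, an endothelial and stem cell receptor kinase) and 1 lower (Slamf1, the SLAM receptor CD150). In aged against young libraries 5 were higher (Ly6a, Slamf1, Procr, Hoxb5 and Mllt3), beside 9.68% of all genes. There 0 were lower (2 at an unadjusted p under 0.05, 1 by DESeq2), beside 9.63%. Without young 1 and young 5 the edgeR counts were again 5 and 0.

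Genes of mature cells moved with the groups that chose the members. In NR against aged libraries 12 of 14 erythroid genes, 9 of 14 B cell genes, 14 of 18 neutrophil genes and 6 of 14 monocyte and T cell genes fell by edgeR, and 0 of their genes rose, with 0 at an unadjusted p under 0.05 and 0 by DESeq2. Over all genes 4.18% fell and 3.88% rose by edgeR. Summed erythroid genes ran from 5265 to 8870 CPM in aged, from 2078 to 3150 CPM in NR and from 2314 to 4941 CPM in young libraries. Hbq1b, Cebpe and Cd177 were at 0 in every NR library. With the counts of all listed mature cell genes taken out of the library totals, the rule gave 145 genes, all of them members. The part of the mature cells' RNA beyond those genes in the members' values was not tested.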

How the data were processed

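RNA of sorted HSC from 15 mice was sequenced from the 3′ end after poly(A) priming. The authors aligned reads to GRCm38 with STAR 2.4.2a, removed duplicates by unique molecular identifier and counted exonic regions of GENCODE M15 with featureCounts. They deposited raw counts of 16154 genes, kept at more than 5 reads and 2 CPM (counts scaled to a library total of 1000000) in at least 2 samples. Here the deposited counts were tested with edgeR 4.0.16 (R 4.3.3): TMM, quasi-likelihood, group as the only factor over all 15 libraries, Benjamini-Hochberg adjustment over all genes and a threshold of 0.05. The rule for members used column sums and a pseudocount of 1. Place, class and sequence came from GENCODE M21. Shares and ratios were compared by exact 2-sided permutation tests, 8 measures in all, with p adjusted over the 3 comparisons of each. No p is given for the same-strand, outside and TEC sums or the ratio with members, which hold genes that the rule chose. The text names the 10 members highest in NR, the 10 with the largest difference, the 2 highest of each class, those nearest the threshold (except 1 not reported here), and further members chosen for the gene around them after their values were seen. The members, gene lists and tests were chosen with earlier results of these data known. On simulated data with 200 genes changed 2-fold between NR and aged libraries, the fit called 52% of them, with 2.8% false calls. Totals of 764119 to 13318989 counts limit the precision. Replicates were separate mice, and no libraries agreed within sampling noise. Counts thinned to 1 depth, other normalizations and tools, DESeq2 1.42.0 among them, and left-out libraries were tried as alternatives. Those without young 1 and 5, by place or class, on the intronic ratio, and without mature cell genes in the totals were chosen after seeing the data. Shared replicate numbers did not pair the libraries (see the closing section).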

Additional observations from a re-analysis of the deposited data

Results flagged for a closer look

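Of 105 groups of 5 libraries examined for single libraries far from the others, 8 had one, and chance alone gives about 1 in 20. Aged 1 was the far library in 5 of them, always on the high side. It had 9.75 counts of intronic predicted genes per 100 counts of the genes around them, 24.3 CPM of AC132085.1, 5.54 CPM of Gm42639, 4.97 CPM of Gm37566 and 6.39 CPM of Gm14537. In young libraries, young 2 had 62.0 CPM of AC132085.1, above the other 4. In NR libraries, NR 1 had 13.5 CPM of Gm42659 and NR 5 had 603 CPM of Fli1, each below the other 4.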

How the results depend on the processing

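Counts in aged libraries were few, and aged 2 was too shallow to separate low members from 0. The rule gave 123 genes with TMM sizes and 177 with a pseudocount of 0.5 against 154, and 116 after thinning to 1 depth, of which 52 were members. With at least 10 counts in every library it gave 4. Leaving out 1 library gave 154 to 365, with 365 without aged 1 (151 of them members) and 321 without NR 1 (152 of them members). Library totals in place of TMM moved the median log2 fold change of all genes from 0.02 to 0.16, that of the genes around members to 0.26, and the NR against aged calls from 627 higher and 676 lower to 1246 and 344.

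Genes called in NR against aged were 1303. They were 783 with at least 10 counts in every library, 468 after thinning, and 422 to 1535 with 1 library left out (422 without aged 3, 534 without NR 4, 538 without NR 3 and 607 without aged 5). Aged against young gave 3120, with 1530 after thinning, 1862 without young 1 and 5, and 1953 (without aged 3) to 3533 with 1 library left out. NR against young gave 722, with 419 after thinning and 452 (without NR 4) to 922. Of the members, thinning left 31 called higher in NR than aged and 34 lower in aged than young, and leaving out 1 library left 52 to 134 and 60 (without aged 3) to 100. In lists, HSC marker calls in NR against aged went from 2 to 1 by the likelihood ratio test, spliceosome calls from 1 to 2 and decay calls from 0 to 2 by library totals, and decay calls to 1 by the likelihood ratio test.

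For the share of counts on predicted genes, processed pseudogenes alone gave 0.0831 for NR minus aged and 0.0456 for aged minus young, the opposite sign. Aged minus young was -0.838 without young 1 and 5. As a number of genes with a count in thinned libraries it was -280 (exact permutation p = 0.0556). NR minus young, at -0.472, turned to 0.231 without the 10 highest such genes, 0.0567 inside named genes on the same strand, 0.129 for processed pseudogenes and 115 as a number of genes, none past the threshold. The intronic ratio with members kept in, NR minus young, was 1.17 to 2.25 with 1 library left out, 2.25 without NR 1. Without members, NR minus aged was 2.87 to 3.84 with 1 library left out (exact permutation p = 0.00794 to 0.0317).

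A replicate block was also run. Same-numbered libraries had a mean correlation of deviations of 0.00433, 2 of 15 pairs were over 0.1 and 0 libraries correlated best with their own number, so the numbers did not pair the libraries. With the block, calls were 1048, 2836 and 589, HSC markers 1, exosome genes 1 and spliceosome genes 2. By the exact sign-flip test of 5 pairs, which cannot go below p = 0.0625, the share gave 0.738 and -1.21 (p = 0.0625 each) and the ratio 3.94 (p = 0.125) and -2.37 (p = 0.0625). The cause of these changes was not tested.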
